A study of Mus musculus with 15 samples.

Results

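The serpin genes of mouse liver were described in 15 RNA sequencing libraries. Members were the genes of the deposited table whose symbol starts with Serpin, followed by a clade letter from a to i and a digit. The rule took 43 of 16809 genes. It used no measured value. Each of the 5 groups had 3 libraries from livers of wild-type mice, sampled after 6 weeks of feeding. The quercetin, myricetin and kaempferol groups ate a high-fat diet and received 1 of these flavonols by oral gavage. The daily doses differed, at 200 mg/kg of quercetin, 75 mg/kg of myricetin and 100 mg/kg of kaempferol. The model group ate standard feed (78.8%) enriched with lard (10%), egg yolk powder (10%), cholesterol (1%) and sodium cholate (0.2%). The control group ate standard feed alone. The labels give no strain, sex, age or hour of collection, and no diet composition for the flavonol groups. Whether each library came from its own mouse is not stated either, so a p-value here reflects only how far libraries spread, which may be technical.

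Serpins are proteins of one fold, most of which trap a protease by offering an exposed loop, the reactive centre loop, as bait. The cut loop snaps into the body of the inhibitor and the protease is held for good. Hepatocytes secrete many of them into plasma, where they hold back neutrophil elastase, clotting factors, plasmin and complement proteases. Some serpins lost inhibition and carry hormones, and the clade B members stay inside cells. Mice have several copies of the alpha-1-antitrypsin and antichymotrypsin genes, where humans have 1 of each.

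Serpin transcripts made up 4.70% to 5.96% of the counts of a library. Per transcript length, Serpina1e was the most abundant member, at a mean of 13700 TPM (a transcript level scaled for gene length and library) over the 15 libraries. Serpina1e is 1 of the 5 alpha-1-antitrypsin copies. It was followed by Serpina1c at 10032 TPM and by Serpina3k, a contrapsin-type inhibitor of trypsin-like proteases, at 9970 TPM. The ranges of these 3 overlapped between libraries, and Serpina1c and Serpina3k cannot be put in order. Serpina1b (5757 TPM), Serpina1a (3864 TPM) and Serpina1d (3547 TPM) came next. Antithrombin, Serpinc1, had a level of 1739 TPM. In all, 7 members averaged at least 1000 TPM, 16 at least 100 TPM and 29 at least 1 TPM.

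**Figure D1:**
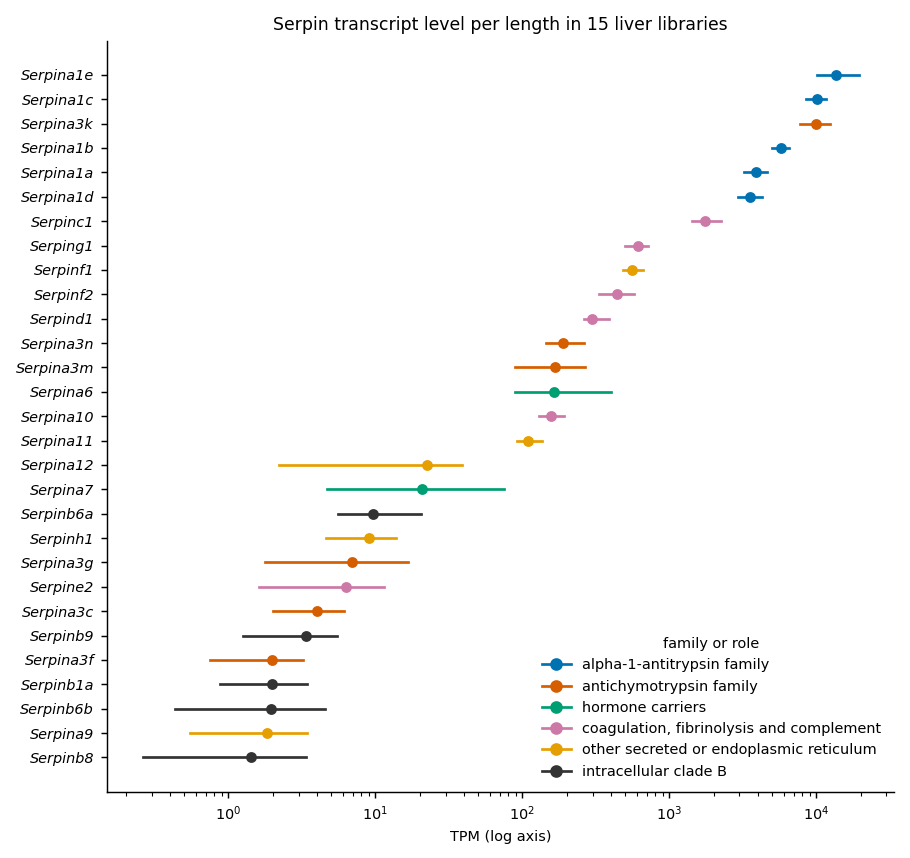
Level of 29 serpin genes that passed the filter on low counts, as TPM on a log axis. Points are means and lines the lowest to highest of 15 libraries, coloured by family or role, and 7 genes lie above 1000 TPM.

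The filter on low counts left out 13 members, so 30 of 43 were tested among 12658 genes. Those left out were Serpina3a, Serpina3b, Serpina3i, Serpina3j, Serpina5, Serpina16, Serpini1, Serpinb1b, Serpinb1c, Serpinb7, Serpinb9b, Serpinb10 and Serpinb12. The highest level among them was 1.25 TPM, for Serpina3i in 1 library. Serpina5, the protein C inhibitor that human liver makes, had 30 counts over all 15 libraries. Serpini1, neuroserpin, had 82 counts in all, at 0.241 ± 0.225 CPM with quercetin, 0.329 ± 0.214 with myricetin, 0.417 ± 0.237 with kaempferol, 0.305 ± 0.0932 in the model and 0.316 ± 0.168 in the control (CPM, the usual library-scaled count, with TMM factors, SD, n = 3).

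The 5 Serpina1 genes are near copies, so reads of one can be assigned to another. Their coding sequences were 96.3% to 98.5% identical over the 10 pairs, and 86 of 1242 aligned positions (6.9%) differed in at least 1 copy. The stretch of 60 bases with the most differences, picked for that, lies near the 3′ end of the coding sequence, and 18 of its positions (30.0%) differed. In serpins, the reactive centre loop is encoded near this end, and this loop sets which protease is taken, which is why these bases are shown. They are given 5′ to 3′ from GENCODE M21 transcripts on the minus strand of GRCm38 chromosome 12, within the last exon of each gene (exon 6 of Serpina1a, exon 5 of the others). Capitals mark positions that are not the same in all 5 copies. The stretches lie at chr12:103947100-103947159 (Serpina1e), chr12:103895094-103895153 (Serpina1c), chr12:103728324-103728383 (Serpina1b), chr12:103853757-103853816 (Serpina1a) and chr12:103763762-103763821 (Serpina1d).
Serpina1e: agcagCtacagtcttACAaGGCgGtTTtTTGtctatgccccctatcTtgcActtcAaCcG
Serpina1c: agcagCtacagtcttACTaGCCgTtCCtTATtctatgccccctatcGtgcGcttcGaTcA
Serpina1b: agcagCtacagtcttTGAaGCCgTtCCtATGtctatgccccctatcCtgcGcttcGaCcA
Serpina1a: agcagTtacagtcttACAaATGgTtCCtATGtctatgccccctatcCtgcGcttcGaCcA
Serpina1d: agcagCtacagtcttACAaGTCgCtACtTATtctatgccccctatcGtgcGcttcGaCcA
Of all stretches of 100 coding bases in Serpina1e, 80.9% occurred in none of the other 4 copies. The share was 72.1% for Serpina1b, 70.2% for Serpina1d, 42.3% for Serpina1a and 38.3% for Serpina1c. Serpina1e thus had the most stretches of its own, and Serpina1c the fewest.

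Libraries held 15.85 M to 17.58 M estimated counts, and the scaling factors between libraries ran from 0.925 to 1.11. Albumin took 4.28% to 7.87% of the counts, and none of 15 hepatocyte markers measured was at 0 in all libraries. Libraries of 1 group correlated at 0.979 to 0.989 on the log scale, and no 2 libraries were identical. From here on, a level is in CPM, its error is the SD over the 3 libraries of a group, and a difference is a log2 fold change ± SE. Adjusted p-values are edgeR's (quasi-likelihood, Benjamini-Hochberg over all 12658 genes), and a gene passed under 0.05. The flavonol groups were each set against the same 3 model libraries, which are also those set against the control, so the comparisons are not independent.

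Quercetin against the model compares mice given this flavonol on a high-fat diet with mice on the model diet. Gavage is described above for the flavonol groups only, and their diet composition is not given. Flavonol, gavage and diet therefore cannot be told apart here. Both hormone-carrying serpins rose, while 1 alpha-1-antitrypsin copy, the main contrapsin gene and Serpina9 fell. Of 30 members tested, 3 rose and 3 fell. That is 20% of the members, against 7.82% of all genes tested (4.06% rose and 3.76% fell). DESeq2 called the same 6 members, beside 10.1% of all genes. At an unadjusted p under 0.05 there were 10 members (33.3%, beside 23.1% of all genes). Library ranges of quercetin and the model did not overlap for 9 members, beside 29.7% of all genes. The median difference of the members was -0.03, and that of all genes 0.01. Serpin transcripts together took 4.83% ± 0.09 of the counts with quercetin and 5.62% ± 0.29 in the model (exact two-sided permutation p = 0.1, the smallest that 3 against 3 libraries allow). Of summed TPM they took 4.835% ± 0.276 with quercetin and 5.509% ± 0.484 in the model, with overlapping ranges (exact two-sided permutation p = 0.2). In bulk liver, fewer cells of a type and less RNA per cell cannot be told apart.

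Serpina6 encodes corticosteroid-binding globulin, the plasma carrier of glucocorticoids (GRCm38.p6 chr12:103646630-103657218, minus strand). It had 371, 284 and 246 CPM in the quercetin libraries, against 163, 125 and 140.0 CPM in the model libraries. Every quercetin library lay above every model library, and also above the control, at 200, 200 and 163 CPM. The means were 300.5 ± 64.3 CPM with quercetin and 143 ± 18.8 CPM in the model, a 2.10-fold difference (log2 1.07 ± 0.15, edgeR adjusted p = 0.000658). Serpina6 passed under all 11 alternative settings. The transcript level of Serpina6 was 139 ± 22.0 CPM with myricetin and 114 ± 8.95 CPM with kaempferol.

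Serpina7 encodes thyroxine-binding globulin, a carrier of thyroid hormone (chrX:139079249-139085270, minus strand). It had 43.3, 65.4 and 55.8 CPM with quercetin, 21.2, 21.3 and 40.3 CPM with myricetin, and 36.7, 14.8 and 18.6 CPM with kaempferol. The model libraries had 8.76, 9.65 and 9.42 CPM, and the control libraries 30.6, 16.8 and 124 CPM. All 3 model libraries lay below the other 12, and 1 control library lay far above the remaining 2. Quercetin against the model gave 2.56 ± 0.68 (edgeR adjusted p = 0.0459). This call was lost whenever any 1 library of either group was left out, with adjusted p-values of 0.0700 to 0.145 and differences of 2.41 to 2.71.

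**Figure D2:**
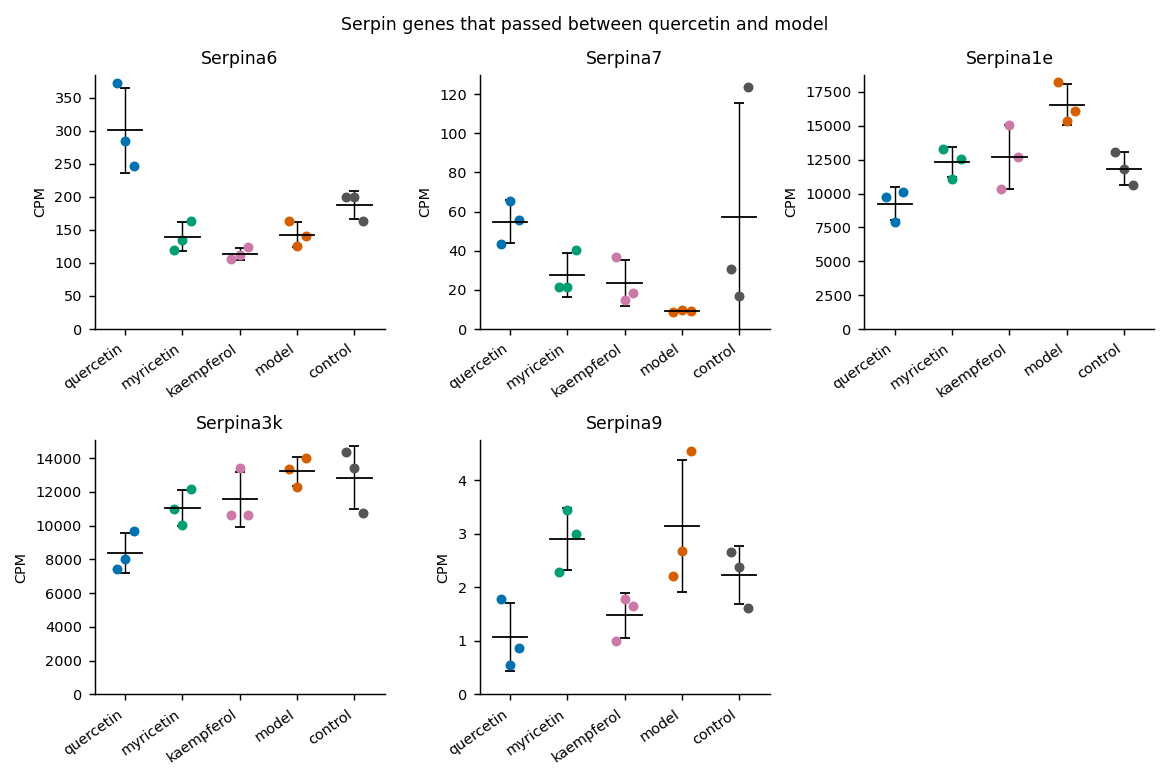
CPM of 5 serpin genes that passed between quercetin and the model, by group. Points are libraries, bars the mean and whiskers 1 SD (n = 3, drawn to 0 at the lowest). Quercetin lies above the model for Serpina6 and Serpina7 and below it for Serpina1e, Serpina3k and Serpina9, with no overlap.

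Among the alpha-1-antitrypsin copies, 1 of 5 fell with quercetin. Serpina1e (chr12:103946931-103956897, minus strand) had 9746, 7897 and 10149 CPM with quercetin, 13278, 11097 and 12568 CPM with myricetin, and 10333, 15087 and 12695 CPM with kaempferol. The model libraries had 18265, 15364 and 16060 CPM, and the control libraries 13035, 11829 and 10614 CPM. Every other library lay below the lowest of the model. Quercetin against the model gave -0.84 ± 0.15 (edgeR adjusted p = 0.00341), and the call held under all 11 alternative settings, with differences of -0.91 to -0.74. The 4 other copies differed by -0.17 to -0.02 and did not pass.

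Because the copies share reads, their counts were also summed. The Serpina1 sum was 30660.0, 29057 and 35158 CPM with quercetin, against 43865, 36951 and 39606 CPM in the model, and the ranges did not overlap. The means were 31625 ± 3162 CPM with quercetin and 40140.0 ± 3488 CPM in the model. Its difference of -0.34 ± 0.15 did not pass (edgeR adjusted p = 0.168). The part of the sum assigned to Serpina1e was 31.8%, 27.2% and 28.9% with quercetin, 39.3%, 35.4% and 33.0% with myricetin, and 35.1%, 36.5% and 39.1% with kaempferol. It was 41.6%, 41.6% and 40.6% in the model libraries, above the other 12, and 32.4%, 30.5% and 31.6% in the control libraries. The exact two-sided permutation test of quercetin (29.3% ± 2.32) against the model (41.3% ± 0.61) gave p = 0.1. Serpina1c took 29.2% ± 2.56 of the sum with quercetin and 23.5% ± 0.22 in the model (exact p = 0.1). Shares add to a whole, so a lower part of 1 copy raises the others. The part of the division of shared reads was not tested.

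**Figure D3:**
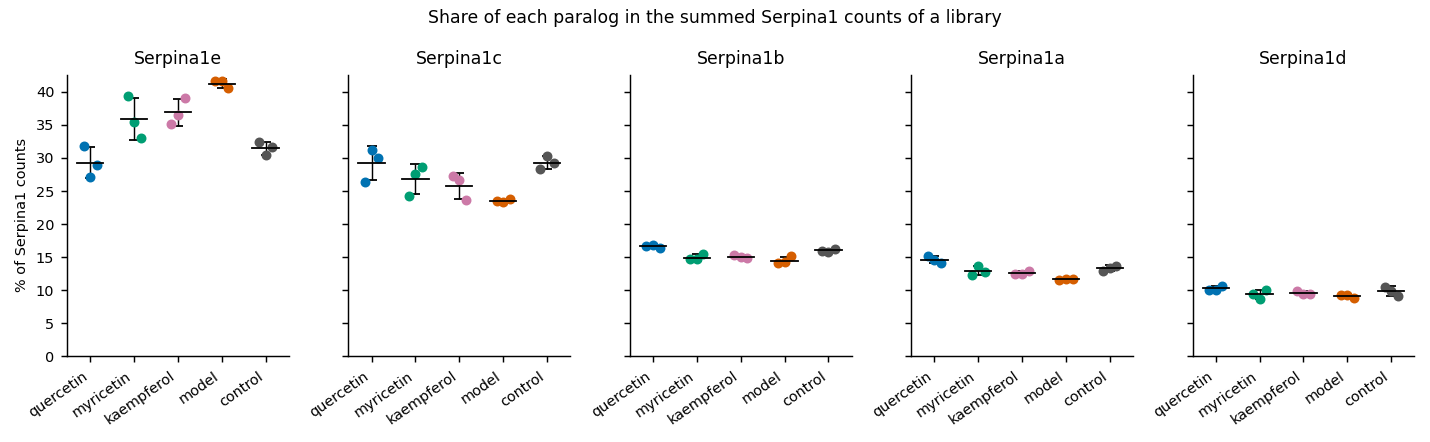
Percent of the summed Serpina1 counts of a library assigned to each of the 5 copies. Points are libraries, bars the mean and whiskers 1 SD (n = 3). Serpina1e takes its highest share in the model, at 40.6% to 41.6%, and the other 4 copies together take the rest.

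The promoters of the Serpina1 copies are near copies too. RefSeq promoter windows (GRCm38.p6, 250 bases before to 50 after the annotated start) matched 35 of 43 members, with 41 windows where genes have several starts, and were 91.4% to 97.6% identical among the 5 copies. Each held GTTAAT, the core motif of the liver factor HNF1, searched on both strands. This motif occurred in at least 1 window of 8 of the 35 members (22.9%) and of 8.25% of all 27018 genes with a promoter. The 5 Serpina1 copies are among these 8, so near-identical promoters are counted 5 times in that share. The 86 bases around the motif are shown for the copy that fell and for one that did not pass. They lie on the minus strand at chr12:103956930-103957015 (Serpina1e) and chr12:103738170-103738255 (Serpina1b), and the capitals are this motif.
Serpina1e: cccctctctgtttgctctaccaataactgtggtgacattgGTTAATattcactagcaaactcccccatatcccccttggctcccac
Serpina1b: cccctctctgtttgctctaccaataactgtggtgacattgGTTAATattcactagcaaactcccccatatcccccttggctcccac
The stretch had 0 differences between these copies, and Serpina1a, Serpina1c and Serpina1d each differed from Serpina1e at 2 positions. Other motifs searched on both strands, in any window of the 35 members, were the E-box CACGTG (0 members, 8.09% of all genes), the D-box TTATGTAA (0 members, 1.11% of all) and the nuclear receptor core motif AGGTCA (7 members, 18.13% of all). The STAT palindrome TTCNNNGAA occurred in 5 members, Serpina3f, Serpina3g, Serpina3i, Serpina11 and Serpinb6a (9.55% of all). Serpina3f, Serpina3g and Serpina3i belong to 1 family, with coding sequences 85.7% to 91.0% identical, so similar promoters are counted repeatedly here too. Serpina6, Serpina3k and Serpina9, which passed with quercetin, were among the members without a window, so no motif was searched in them. A match describes letters in a window and is not a bound site. In Serpina1e the HNF1 motif began 78 bases before the annotated start, against 16 to 27 bases in the other 4 copies. Their windows matched that of Serpina1e at 95.2% to 97.6% over 239 to 250 aligned positions, and the same sequence ran on after the motif. This distance thus follows where each start was annotated and is not a difference in the bases around the motif.

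In the antichymotrypsin family, 1 of 6 tested members fell with quercetin. Serpina3k (chr12:104338486-104345739, plus strand) took 93.6% to 97.1% of the family's counts. It had 7430, 8022.5 and 9694 CPM with quercetin, 10984, 10016 and 12143 CPM with myricetin, and 10632, 13412 and 10614 CPM with kaempferol. The model libraries had 13325, 12296 and 13999 CPM, and the control libraries 14365, 13394 and 10755 CPM. The quercetin libraries lay below all 12 others. Their difference from the model was -0.66 ± 0.15 (edgeR adjusted p = 0.0133), and the adjusted p was 0.0531 at the highest with 1 library left out. The call was lost without quercetin library 2 or 5. The Serpina3 sum was 7867, 8572 and 10234 CPM with quercetin (8891 ± 1215), against 13841, 12732 and 14414 CPM in the model (13662 ± 855). Its difference was -0.62 ± 0.15 (edgeR adjusted p = 0.0173). That call too was lost without model library 1 or 5 or quercetin library 2 or 5, at adjusted p-values of 0.0597 to 0.0635.

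The smaller Serpina3 genes did not pass. Serpina3m had 219 ± 28.9 CPM with quercetin and 155 ± 28.2 CPM in the model, a difference of 0.49 ± 0.20 that did not pass (edgeR adjusted p = 0.150). Serpina3n, an acute-phase gene whose product can block granzyme B, had 276 ± 51.0 CPM with quercetin and 283 ± 28.8 CPM in the model (-0.03 ± 0.17, edgeR adjusted p = 0.935). Coding sequences of the 10 family members were 70.1% to 91.0% identical, and 91.8% of the 100-base stretches of Serpina3k and of Serpina3m occurred in no other member.

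The abundant inhibitors of clotting, fibrinolysis and complement stayed close to the model. Antithrombin, Serpinc1, which blocks thrombin and factor Xa, had 2030 ± 112 CPM with quercetin and 1959 ± 135 CPM in the model. Its difference was 0.05 ± 0.11, with a 95% interval of -0.17 to 0.27. Serpind1, heparin cofactor II, had 449 ± 67.0 CPM with quercetin and 471 ± 34.5 CPM in the model. Serpinf2, the plasmin inhibitor alpha-2-antiplasmin, had 698 ± 99.0 CPM with quercetin and 654 ± 50.9 CPM in the model. Serpind1 inhibits thrombin, and Serpinf2 protects clots from plasmin. Serping1, the C1 inhibitor of complement, had 795 ± 28.8 CPM with quercetin and 779.9 ± 139 CPM in the model. Serpina10, the protein Z-dependent inhibitor of factor Xa, had 180.2 ± 12.8 CPM with quercetin and 165 ± 5.97 CPM in the model. None of these 5 passed, and their 95% intervals lay between -0.35 and 0.36 on the log2 scale. Serpine2, protease nexin 1, had 2.00, 5.66 and 10.3 CPM with quercetin, against 9.43, 10.5 and 12.8 CPM in the model (-0.87 ± 0.51, edgeR adjusted p = 0.335). Of their target proteases and cofactors in clotting and fibrinolysis, 1 rose and 1 fell among 29 tested, with a median of -0.02. Kng2, a kininogen, rose by 0.63 ± 0.10 (284 ± 24.0 CPM with quercetin, 184 ± 14.6 CPM in the model). Vwf, von Willebrand factor, fell by 0.80. None of 14 complement genes passed in edgeR's test, at a median of -0.24.

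The remaining secreted members included 1 that fell. Serpina9, known in humans as the B cell serpin centerin, had 32, 10 and 14 counts with quercetin and 36, 46 and 69 counts in the model. In CPM these were 1.78, 0.555 and 0.862 with quercetin and 2.20, 2.68 and 4.54 in the model, without overlap (-1.54 ± 0.39, edgeR adjusted p = 0.0226). It missed the threshold without model library 5 or quercetin library 5 or 8, with adjusted p-values up to 0.107. Summed CPM of 13 T, NK and B cell markers was 11.9 to 21.3 with quercetin and 12.8 to 20.0 in the model. Of 11 tested markers, Cd4 fell and 0 rose, at a median of 0.28. Serpina12, the adipokine vaspin, spread widely, at 5.17, 30.9 and 61.4 CPM with quercetin, against 65.4, 107 and 120 CPM in the model. These ranges did not overlap, but the difference of -1.59 ± 0.61 did not pass (edgeR adjusted p = 0.148). It passed without quercetin library 8. Of 8 adipocyte markers, 7 were in the table, and none of the 4 tested passed, at a median of -0.87. Their summed level was 2447 to 2683 CPM with quercetin and 944.1 to 2021 CPM in the model, without overlap. Pck1, which hepatocytes also use to make glucose, took 99.48% to 99.78% of that sum with quercetin and 96.65% to 99.56% in the model. Adipoq, Plin1 and Retn were at 0 in all quercetin libraries, and at most 0.1163 CPM in the model. Cidec, also on the list, had 0.278 to 1.05 CPM with quercetin and 1.29 to 3.16 CPM in the model, without overlap. Fabp4 had 3.77 to 6.52 CPM with quercetin and 5.14 to 6.92 CPM in the model. The part of fat cells in the Serpina12 level was not tested. Serpinh1, the collagen chaperone HSP47 of the endoplasmic reticulum, had 10.8 ± 2.39 CPM with quercetin and 17.2 ± 1.73 CPM in the model (-0.66 ± 0.28, edgeR adjusted p = 0.169). Of 21 tested genes of collagen and its processing, 2 fell with quercetin, at a median of -0.37. They were P4hb (-0.43 ± 0.10) and Plod1 (-0.39 ± 0.10), enzymes that modify collagen chains. Serpinf1, pigment epithelium-derived factor, had 564 ± 9.93 CPM with quercetin and 577 ± 71.2 CPM in the model. Serpina11 had 109.6 ± 2.10 CPM with quercetin and 109 ± 10.6 CPM in the model.

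**Figure D4:**
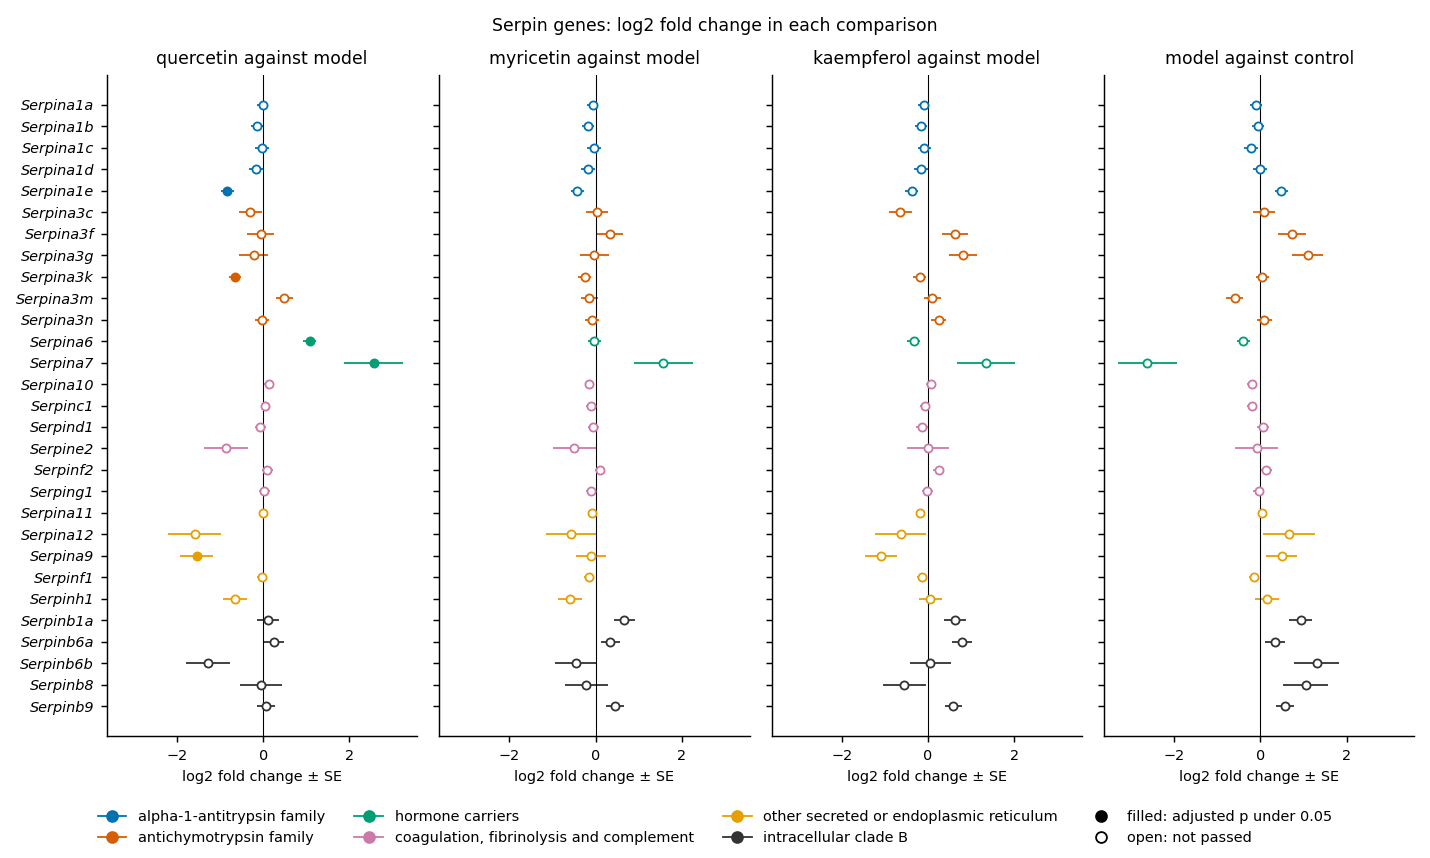
Log2 fold change ± SE of 29 tested serpin genes in the 4 comparisons, grouped and coloured by family or role. Filled points passed at an adjusted p under 0.05, and the 5 filled points all stand in the quercetin panel.

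Clock genes, which follow the hour of the day, differed between quercetin and the model. On the list of 18 such genes, 7 rose, among them Dbp, Nr1d1 and Bhlhe41, while 6 fell, among them Arntl and Cry1, with a median of 0.63. Dbp, a clock output factor, had 143 ± 18.7 CPM with quercetin and 2.68 ± 0.42 CPM in the model. The part of the clock genes in the serpin differences was not tested.

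Further gene lists were counted between quercetin and the model, where 7.82% of all genes tested passed (4.06% rose and 3.76% fell). In lists this small, a few passing genes may be near that share. Of 22 tested genes of protein folding and degradation in the endoplasmic reticulum, where serpins are folded for secretion, 0 rose and 7 fell, with a median of -0.31. The chaperones Calr (-0.67 ± 0.12), Canx (-0.42 ± 0.09) and Pdia3 (-0.57 ± 0.13) were among them. Of 22 tested genes of growth hormone signalling and male-biased liver expression, 0 rose and 6 fell, with a median of -0.29. Stat5a, which carries the growth hormone signal, fell by 1.01, and Elovl3, a fatty acid elongase, had 100.2 ± 61.7 CPM with quercetin and 903 ± 106 CPM in the model. The summed level of that list was 10030, 10440 and 19000 CPM with quercetin, against 15820, 19850 and 17880 CPM in the model. The part of these lists in the serpin differences was not tested. Of 25 acute-phase genes, 2 rose (the signalling inhibitor Socs3 and the factor Cebpb) and 1 fell (the receptor Il6st), with a median of 0.43. Of 16 other secreted protease inhibitors, Slpi rose and Mug1, a murinoglobulin, fell, at a median of 0.03. Among 16 leukocyte and lysosomal proteases, 3 rose and 0 fell, at a median of 0.20. They were Prtn3, neutrophil proteinase 3 (2.62 ± 0.31 CPM with quercetin, 0.54 ± 0.17 CPM in the model), Ctsz, a lysosomal cathepsin, and Prss8, a membrane protease. Of 16 tested genes of hormone carriage and of steroid and thyroid response, Zbtb16, a gene that glucocorticoids induce, rose by 1.29 ± 0.28 and Thrb, a thyroid hormone receptor, fell by 0.64. Their median was 0.11.

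Model against control asks what the cholesterol-rich diet did to these genes. None of the 30 members passed edgeR's test, beside 4.46% of all genes tested (2.2% rose and 2.27% fell). At an unadjusted p under 0.05 there were 10 members (33.3%), beside 21.7% of all genes, and DESeq2 called 4 members, beside 7.71% of all genes. Those 4 were Serpina1e and Serpina3g, higher in the model, and Serpina3m and Serpina7, lower in the model. Library ranges did not overlap for 8 members, beside 30% of all genes. The smallest adjusted p was that of Serpina7, 0.0567, for a difference of -2.62 ± 0.68 (9.28 ± 0.47 CPM in the model, 57.1 ± 58.2 CPM in the control). Without control library 3, which had 124 CPM, this difference was -1.35. Serpina1e averaged 16563 ± 1515 CPM in the model and 11826 ± 1210 CPM in the control, without overlap (0.49 ± 0.15, edgeR adjusted p = 0.0751). Its share of the Serpina1 sum was 41.3% ± 0.61 in the model and 31.5% ± 0.96 in the control (exact p = 0.1), while the sum itself differed by 0.10 ± 0.15. Serpina3m had 155 ± 28.2 CPM in the model and 235 ± 23.1 CPM in the control (-0.60 ± 0.20, edgeR adjusted p = 0.0960). Serpina6 had 143 ± 18.8 CPM in the model and 188 ± 21.6 CPM in the control (-0.39 ± 0.15, edgeR adjusted p = 0.144). Serpinc1 was 1959 ± 135 CPM in the model and 2258 ± 77.6 CPM in the control (-0.21 ± 0.11, edgeR adjusted p = 0.273). Among clotting and fibrinolysis genes, 3 of 29 rose (F11, Tfpi and F8) and 2 fell (Kng1 and Kng2), at a median of -0.05. Summed CPM of the 15 hepatocyte markers was 89320.0 to 109800.0 in the model and 115300.0 to 129800.0 in the control, without overlap. That sum includes albumin, which took 5.08% ± 0.79 of the counts in the model and 7.55% ± 0.27 in the control. Of the 15 markers, 0 rose and 1 fell, at a median of -0.23. The one that fell was Hnf4a, a hepatocyte factor, by 0.72. The part of the hepatocyte markers in these differences was not tested.

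Myricetin against the model and kaempferol against the model gave no passing member in edgeR's test. Of all genes, 0.395% passed with myricetin (0.182% rose and 0.213% fell) and 0.0395% with kaempferol (0.0158% rose and 0.0237% fell). DESeq2 called 0 members in either comparison, beside 1.64% of all genes with myricetin and 1.57% with kaempferol. At an unadjusted p under 0.05 there were 6 members with myricetin (20%, beside 11.9% of all genes) and 10 with kaempferol (33.3%, beside 11.7%). Library ranges did not overlap for 8 members in each, beside 18.8% of all genes with myricetin and 18.9% with kaempferol. Serpina1e had 12314 ± 1112 CPM with myricetin and 16563 ± 1515 CPM in the model (-0.43 ± 0.15, edgeR adjusted p = 0.252). The smallest adjusted p with kaempferol was that of Serpinb6a, at 13.5 ± 4.55 CPM with kaempferol and 7.86 ± 0.85 CPM in the model (0.78 ± 0.23, edgeR adjusted p = 0.170). For Serpina1e the 95% intervals of the log2 difference were -0.75 to -0.11 with myricetin and -0.70 to -0.06 with kaempferol. For Serpina6 they were -0.36 to 0.29 with myricetin and -0.66 to -0.0049 with kaempferol. These values stand beside those of quercetin only as listed, since the doses differ. The Serpina1 sum differed by -0.22 ± 0.15 with either flavonol (edgeR adjusted p = 0.592 with myricetin and 0.618 with kaempferol). The Serpina3 sum differed by -0.25 ± 0.15 with myricetin and by -0.18 ± 0.15 with kaempferol, with edgeR adjusted p-values of 0.530 with myricetin and 0.725 with kaempferol. Among the 18 clock genes, 3 rose and 2 fell with myricetin, while 0 rose and 1 fell with kaempferol. The other gene lists had 1 call with each, P4hb lower with myricetin and the acute-phase gene Saa3 higher with kaempferol.

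A single test of any difference among the 5 groups passed for 10 of 30 members (33.3%), beside 16.1% of all genes. Serpina1e, Serpina3k, Serpina6 and Serpina9, described above, were 4 of them, and Serpina3m was the fifth. The other 5 were scarce in liver. They were Serpinb1a, which inhibits neutrophil proteases, Serpinb6a, whose human counterpart blocks cathepsin G, Serpinb9, the granzyme B inhibitor of killer cells, Serpina3g, a leukocyte inhibitor of cathepsins, and Serpina3f. Serpinb1a (edgeR adjusted p = 0.00451) had 1.89, 1.89 and 2.89 CPM with quercetin, 3.15, 2.35 and 4.25 CPM with myricetin, and 3.10, 3.31 and 3.12 CPM with kaempferol. It had 2.27, 1.80 and 2.11 CPM in the model and 1.01, 1.16 and 1.06 CPM in the control. The 3 control libraries lay below all 12 from fatty diets. Serpinb9 (edgeR adjusted p = 0.00815) had 6.73 ± 0.88 CPM with quercetin, 8.78 ± 1.64 with myricetin, 9.64 ± 1.75 with kaempferol, 6.43 ± 0.79 in the model and 4.35 ± 1.05 in the control. Its control libraries too lay below the other 12. Serpinb6a (edgeR adjusted p = 0.0248) had 9.39 ± 1.84 CPM with quercetin, 9.96 ± 2.46 with myricetin, 13.5 ± 4.55 with kaempferol, 7.86 ± 0.85 in the model and 6.23 ± 0.99 in the control. Serpina3g (edgeR adjusted p = 0.0197) had 7.09 ± 0.81 CPM with quercetin, 8.09 ± 0.94 with myricetin, 14.5 ± 3.80 with kaempferol, 8.29 ± 2.84 in the model and 3.87 ± 2.46 in the control. Serpina3f (edgeR adjusted p = 0.0428) had 2.82 ± 1.05 CPM with quercetin, 3.73 ± 0.95 with myricetin, 4.55 ± 0.25 with kaempferol, 2.94 ± 0.62 in the model and 1.75 ± 0.70 in the control. Without control library 2, the test passed for 5 members, and without model library 5 for 6. Serpinb1a and Serpinb9 were among them both times. Without kaempferol library 8, Serpina3g (edgeR adjusted p = 0.0568) and Serpinb6a (0.0581) did not pass. Of 19 alternative settings, Serpina3m passed this test under only 5 and Serpina3f under 9. Serpinb1a and Serpinb9 each passed under 18, and the others under 11 to 19. All 5 tested clade B members were higher in the model than in the control by their fitted difference, with a median of 0.93 and a smallest adjusted p of 0.0648 in edgeR's test, so none passed. With quercetin against the model they ran from -1.28 to 0.26, and none passed.

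**Figure D5:**
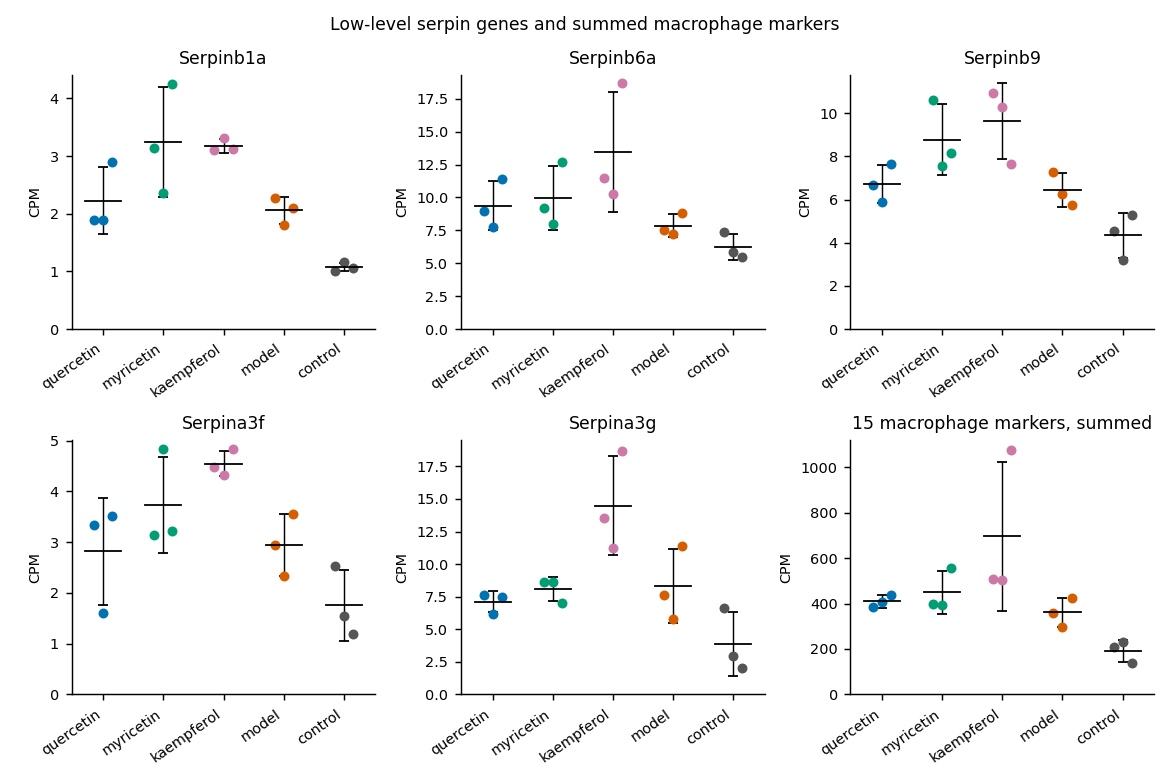
CPM of 5 scarce serpin genes that passed the test of any difference, and the summed CPM of 15 macrophage and Kupffer cell markers, by group. Points are libraries, bars the mean and whiskers 1 SD (n = 3), and the control is the lowest group by its mean in all 6 panels.

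Markers of liver macrophages were summed in the same libraries. All 15 were in the table, none at 0 in all libraries, and their summed level was 383 to 438 CPM with quercetin, 394 to 558 CPM with myricetin and 505 to 1075 CPM with kaempferol. It was 297 to 426 CPM in the model and 139 to 233 CPM in the control. The kaempferol library with the highest sum, library 8, also had the highest Serpinb6a (18.7 CPM) and Serpina3g (18.7 CPM) of all libraries. Serpina3f was highest there too, at 4.83 CPM, against 4.82 CPM in myricetin library 7. Serpinb1a went the other way. It was highest in myricetin library 8 (4.25 CPM), while kaempferol library 8 had 3.12 CPM. In the model against the control, 4 of 15 macrophage markers and 5 of 14 endothelial markers rose, beside 2.2% of all genes tested. The list medians were 0.83 for macrophage and 0.745 for endothelial markers, and 0 fell in either list. Those that rose included Mrc1, Clec4f and Cd68 of the macrophage list, and Gpr182, Stab2 and Cdh5 of the endothelial list. Summed T, NK and B cell markers were 11.9 to 21.3 CPM with quercetin, 12.6 to 15.2 with myricetin, 20.4 to 32.5 with kaempferol, 12.8 to 20.0 in the model and 3.99 to 13.5 in the control. Summed neutrophil markers, 12 genes, were 6.65 to 15.4 CPM with quercetin, 5.43 to 7.38 with myricetin, 5.41 to 14.5 with kaempferol, 2.91 to 6.25 in the model and 3.61 to 4.66 in the control. The part of cell makeup in the levels of these serpin genes was not tested.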

How the data were processed

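The submitters' processing notes name RSEM 1.3.1, HISAT2 2.1.0, DESeq2 1.4.5, Bowtie2 2.3.4.3 and the GRCm38.p6 build, without saying what each did. The deposited table gives expected counts for each gene in each library, unscaled between libraries, per the file headers. TPM, scaled for length and library by the authors per the file headers, was used to compare genes. The authors' FPKM values and group averages, per the file headers, were not used. Of the expected counts 5.37% were not whole, and they were rounded. It also holds the authors' log2 fold changes and p-values (q values), per the file headers, used only to count and name members. Strand of the libraries was not given in the sources used here.

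Genes were filtered with filterByExpr, scaled by TMM and fitted with edgeR 4.0.16 (limma 3.58.1, R 4.3.3), robust quasi-likelihood, on all 15 libraries (a mean for each group, residual degrees of freedom 10). The SE is the log2 fold change over the square root of F. The common biological coefficient of variation was 0.155. Paralog sums replaced the rows of their members. Alternatives were DESeq2 1.42.0, other size factors, no filter, only 2 groups, a replicate block and each library left out. Scripts were tested on simulated data. Coding sequences were aligned with MAFFT 7.526. Table positions of Serpina1b and Serpina1d mix a scaffold with chromosome 12, so RefSeq positions were used. Members, lists and tests were chosen with earlier results of these data known. Members that passed in 1 of the 4 comparisons were given by library, members with a fixed role by group mean (Serpini2 was not analysed here), and up to 3 passing genes per list and direction. Of the members that passed and of the listed genes, 1 each is counted but not reported here.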

Additional observations from a re-analysis of the deposited data

How the results depend on the processing

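Serpina1e and Serpina6 passed between quercetin and the model under all 11 alternatives, with adjusted p-values of at most 0.0422 and 0.00864. The count of 6 members in that comparison was 6 with DESeq2 and with other size factors (the same genes), 5 without a filter and 5 in a fit of only the 2 groups, and 2 to 5 with 1 library left out. It was 2 without quercetin library 5 and 3 without model library 5. For model against control the count of 0 was 4 with DESeq2, 2 in a fit of only the 2 groups and 0 to 2 with 1 library left out. For myricetin it was 1 (Serpina7) in a fit of only the 2 groups. The test of any difference passed for 10 members, for 14 with DESeq2 and for 5 to 11 with 1 library left out. Among the alternatives, the share of all genes was computed only for the 4 comparisons with DESeq2. The other alternative counts, the 14 included, thus have no background. The Serpina3 sum differed by -0.73 to -0.54 between quercetin and the model with 1 library left out, and by -0.0793 to 0.122 between the model and the control. With 1 library left out, Serpina3k ran from -0.0720 to 0.130 in the model against the control (below 0 without control library 3). Serpina6 with myricetin ran from -0.165 to 0.0710 (above 0 without model library 1 or myricetin library 5). Serpina9 with myricetin ran from -0.308 to 0.245 (above 0 without model library 5 or myricetin library 5). The cause was not tested.

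Replicate numbers were not used to pair the samples. Deviations of same-numbered libraries correlated at -0.121 to 0.0847. Only 1 or 2 numbers were shared in a comparison, so these values cannot exclude a pairing. With the replicate number as a block, 3 members passed for quercetin (Serpina1e, Serpina6 and Serpina7) and 2 in the test of any difference (Serpina6 and Serpina7). Under the block the Serpina3 sum was -0.63 for quercetin (adjusted p = 0.0968) and -0.0577 for the model against the control. In the same fit Serpina3k was -0.0536 for the model against the control, and Serpina6 was 0.13 for myricetin.

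In the authors' deposited table, 9 members had a q value under 0.05 for quercetin, 5 for the model against the control, 2 for myricetin and 1 for kaempferol. The share of all genes under that q value was not computed, so these counts have no background. Serpina7 was among them in all 4 comparisons. Those for quercetin included Serpina3m, Serpinh1 and Serpinb6b, which did not pass in edgeR's test. Serpina9 had 10 to 69 counts a library in quercetin and the model.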
